A study of Mus musculus with 16 samples.

Results

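The carboxylesterases described here are 10 genes of 1 enzyme family that mouse liver expresses: Ces1b, Ces1c, Ces1d, Ces1e, Ces1f, Ces1g, Ces2a, Ces2e, Ces3a and Ces3b. They were found in the deposited expression table by their Ensembl gene IDs, and all 10 were present among its 35275 IDs. Liver RNA came from mice with an intact Zfp36l1 gene (WT) and from mice with a deletion of Zfp36l1 confined to the liver (LKO), each on a control diet or on a diet with ethanol. The 4 groups, WT control, WT ethanol, LKO control and LKO ethanol, held 4 libraries each. The driver of the deletion, the age, sex and strain of the mice, the make-up of the diets and the feeding time were not stated in the sources used here. Whole liver was taken, so fewer cells of a type and less RNA per cell cannot be told apart in these values. Nothing beyond the sample names says that the libraries of a group came from separate animals, so the p-values measure the spread between these libraries.

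Carboxylesterases are serine hydrolases that split ester, amide and thioester bonds. Most sit in the lumen of the endoplasmic reticulum of hepatocytes, where they hydrolyse ester drugs and prodrugs, and several also act on the fatty acid esters of cells. Ces1d, also called triacylglycerol hydrolase, releases fatty acids from stored triglyceride for the assembly of very-low-density lipoprotein, and Ces1g is a further hydrolase of the endoplasmic reticulum with a known part in hepatic lipid handling. Ces1c is the main esterase of mouse plasma and is secreted by the liver. Ces1e, also known as egasyn, holds beta-glucuronidase in the endoplasmic reticulum. Enzymes of the carboxylesterase 2 group prefer esters with a small acyl and a large alcohol group.

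The genes lie in 2 clusters on chromosome 8 (GRCm38, GENCODE M21). The 8 Ces1 genes of the annotation, all on the minus strand, span 360 kb from 93020214 to 93379725, and the 11 genes from Ces2 to Ces4, all on the plus strand, span 416 kb from 104734003 to 105150109. All 10 members are annotated as protein-coding. Ces1b (ENSMUSG00000078964) lies at 93056728 to 93080017, Ces1c (ENSMUSG00000057400) at 93099015 to 93131283 and Ces1d (ENSMUSG00000056973) at 93166068 to 93197838. They are followed by Ces1e (ENSMUSG00000061959) at 93201218 to 93229619, Ces1f (ENSMUSG00000031725) at 93256236 to 93279747 and Ces1g (ENSMUSG00000057074) at 93302369 to 93337308. In the second cluster, Ces2a (ENSMUSG00000055730) lies at 104734003 to 104741634 and Ces2e (ENSMUSG00000031886) at 104926260 to 104934672. Ces3a (ENSMUSG00000069922) lies at 105048601 to 105058413 and Ces3b (ENSMUSG00000062181) at 105083753 to 105093929.

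The coding sequences in GENCODE M21 show how close the copies are. Ces3a and Ces3b are the closest pair, with 1635 of 1716 coding bases identical (95.3%), followed by Ces1b and Ces1c (90.9%) and by Ces2a and Ces2e (83.3%). The Ces1 pairs shared 72.1 to 90.9% of aligned bases, and members of different subfamilies 58.4 to 62.4%. Because Ces3a and Ces3b had the largest ethanol differences of the 10 genes, the 120 coding bases that differ most between them are shown; these are coding bases 1 to 120, and capitals mark the 16 positions, of 81 in the whole coding sequence, at which the 2 genes differ.
Ces3a: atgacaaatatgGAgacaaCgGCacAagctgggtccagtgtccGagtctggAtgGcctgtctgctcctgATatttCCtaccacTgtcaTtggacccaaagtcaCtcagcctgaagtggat
Ces3b: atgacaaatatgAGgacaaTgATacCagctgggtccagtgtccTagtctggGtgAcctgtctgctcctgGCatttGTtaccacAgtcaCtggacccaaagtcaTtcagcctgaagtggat
Elsewhere the pair has up to 194 identical coding bases in a row. Of all 50-base windows of the Ces3a transcript, 30.9% also occur in a Ces3b transcript, and 26.1% of the Ces3b windows occur in Ces3a. The share found in transcripts of other genes was 22.2% for Ces2a, 17.0% for Ces1c and 11.6% for Ces1b, and 1.28 to 3.36% for the 5 other members. How the authors assigned reads that match several genes was not stated, so the values of Ces3a, Ces3b, Ces2a, Ces1b and Ces1c could hold or lack reads of a copy.

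The sequences before the starts of Ces1b and Ces1c are shown because these neighbours differ widely in level although their upstream sequences are close. RefSeq (GRCm38.p6) gave promoters for 7 members and none was matched for Ces1d, Ces1f and Ces3a. Of the 250 bases before each start, 147 could be aligned between Ces1b and Ces1c, and 137 of them were identical. Both lie on the minus strand, at chr8:93080018-93080267 for the upstream of the 2 listed starts of Ces1b and at chr8:93131284-93131533 for Ces1c. The aligned length depends on this choice of start. With the other start of Ces1b, promoters of 300 bases, 250 before and 50 after the start, aligned over 273 bases. Of these, 253 were identical. Capitals mark bases within the aligned stretch that the other gene does not share.
Ces1b: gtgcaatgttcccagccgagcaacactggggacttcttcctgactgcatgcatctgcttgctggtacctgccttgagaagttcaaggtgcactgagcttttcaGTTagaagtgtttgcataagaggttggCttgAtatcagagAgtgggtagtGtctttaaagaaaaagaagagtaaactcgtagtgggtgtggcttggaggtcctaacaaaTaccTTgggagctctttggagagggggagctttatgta
Ces1c: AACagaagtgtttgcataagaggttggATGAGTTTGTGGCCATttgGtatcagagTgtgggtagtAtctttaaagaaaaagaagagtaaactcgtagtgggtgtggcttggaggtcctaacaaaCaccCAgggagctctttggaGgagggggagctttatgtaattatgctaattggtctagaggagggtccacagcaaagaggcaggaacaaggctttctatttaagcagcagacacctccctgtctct
The promoters, from 250 bases before to 50 bases after the start, were searched on both strands for the nuclear receptor motifs AGGTCA and AGTTCA and for the antioxidant response element core TGACNNNGC. AGTTCA was found in Ces1b and AGGTCA in Ces2a, and none of the 3 was found in Ces1c, Ces1e, Ces1g, Ces2e or Ces3b. Of all 32851 promoters of the table, 16.3% held AGGTCA, 14.0% AGTTCA and 12.4% TGACNNNGC.

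ZFP36L1, the protein lost in LKO livers, binds AU-rich stretches of 3′ untranslated regions (3′ UTRs) and speeds the decay of the messenger RNA, so the 3′ UTRs of the members were searched for its core site TATTTAT. Of the 10 members, 2 held a single site. The site of Ces1d starts at base 137 of a 187-base 3′ UTR and that of Ces1f at base 144 of 193 bases; both are shown with their flanks and the site in capitals (GENCODE M21).
Ces1d: aaaaaggaaaTATTTATctccttcaac
Ces1f: ggaaatgttgTATTTATgtctttaatt
Among all 10396 tested genes with a 3′ UTR, 26.4% held TATTTAT at least once. Ces3a and Ces3b, with 3′ UTRs of 310 and 667 bases, held none.

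The labels were checked with Zfp36l1, which measured 9.30 to 25.54 FPKM in the 8 WT libraries and 0.572 to 1.76 FPKM in the 8 LKO libraries. FPKM scales the fragments counted for a gene by transcript length and library depth, a level per length that allows genes to be compared. Read totals worked out from the table were 19069828 to 24768501 in 15 libraries and 9884479 in WT ethanol library 2. That library stood apart from the rest: its Spearman correlation with the others across genes was 0.664 to 0.721, against 0.858 to 0.985 among the others, and mitochondrial transcripts took 22.5% of its reads, against 3.64 to 6.97%. It also carried the Y-linked Ddx3y at 1.43 FPKM, against at most 0.0448 FPKM elsewhere, together with Xist, the transcript of the inactive X chromosome, at 6.62 FPKM, against 13.7 to 49.4 FPKM elsewhere. Red blood cell markers (Hba-a1, Hbb-bs, Alas2) summed to 1914 FPKM in it, against 91.9 to 264.5 FPKM. Whether its label holds, or whether it contains RNA of more than 1 animal, was not tested, and the WT ethanol values carry this doubt. It was kept, and calls that change without it are named beside their results. Within groups, the first component of variation (40% of the variance) separated libraries 1 and 2 of every group from libraries 3 and 4. These are called the 2 sides, and no label gives a batch that matches them. They were drawn from the expression values themselves, so a fit with a term for them is not independent support. Hepatocyte markers (Alb, Apoa1, Ttr, Serpina1a, Tat, Cps1) were all above 0 in every library, and none of the 6 differed between groups at an adjusted p under 0.05.

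Together the carboxylesterase genes, 20 in the table, took 0.749% ± 0.0258 of all reads in WT control livers and 0.694% ± 0.0610 in LKO control livers (SD, n = 4). On ethanol they took 0.316% ± 0.125 in WT and 0.444% ± 0.0985 in LKO. Their summed level was 3742, 3751, 3753 and 4029 FPKM in WT control libraries and 918.3, 1538, 1585 and 2463 FPKM in WT ethanol libraries. In LKO it was 3188 to 3912 FPKM on the control diet and 1665 to 2826 FPKM on ethanol. All 4 ethanol libraries of each genotype therefore lay below all of its control libraries. The 10 members made up 96.8 to 99.8% of the family's FPKM in every library.

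**Figure D1:**
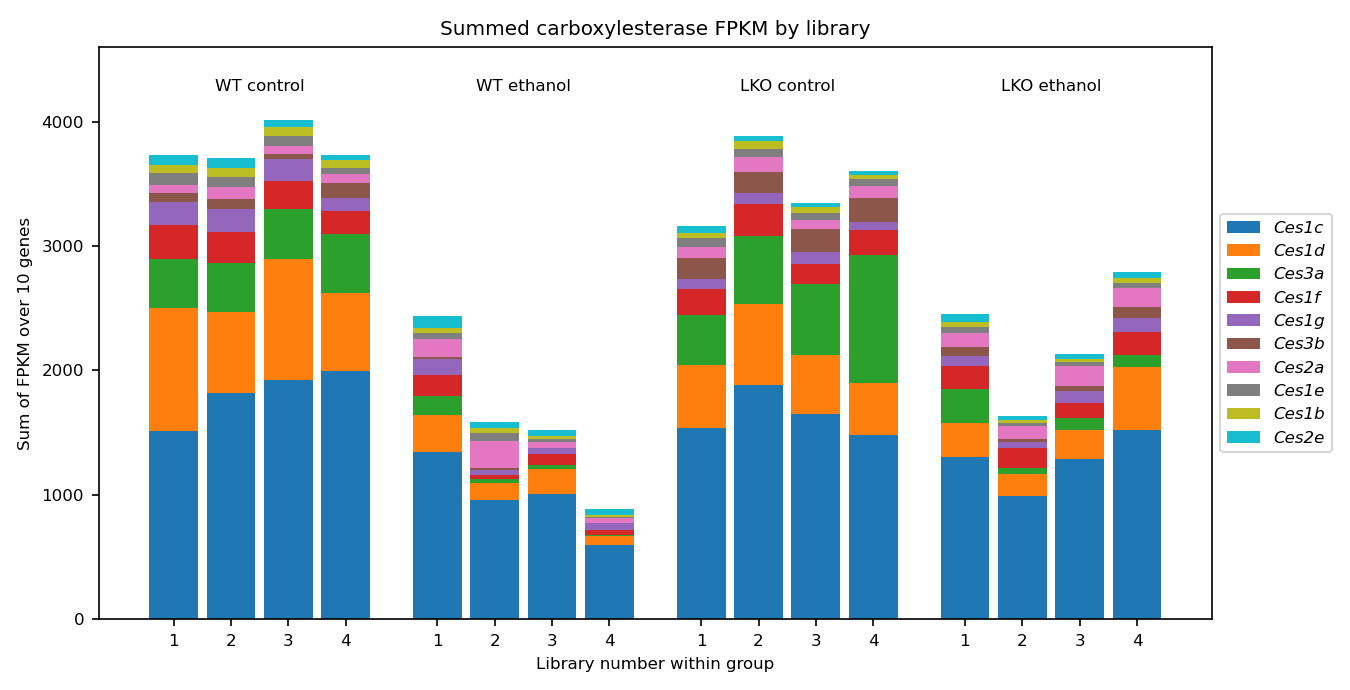
Stacked bars give the summed FPKM of the 10 carboxylesterases in each of the 16 libraries, by group, with 1 colour per gene. Ces1c (lowest segment) is the largest in every library, and the ethanol bars are shorter than the control bars within each genotype.

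Ces1c was the most abundant member in all 4 groups and did not overlap the next gene in any of them. In WT control livers the order by mean level was Ces1c (1810 FPKM), Ces1d (813.7 FPKM), Ces3a (416.5 FPKM), Ces1f (229.5 FPKM) and Ces1g (164.1 FPKM). The first 3 steps of that order, down to Ces1f, were free of overlap between neighbours, and every later pair of neighbours overlapped. The 5 lowest were Ces3b (79.96 FPKM), Ces1e (77.0 FPKM), Ces2a (73.75 FPKM), Ces1b (70.13 FPKM) and Ces2e (61.03 FPKM). Ces1b was thus 1 of the lowest members although its coding sequence, and its upstream sequence among the 7 members with a promoter, are the closest to those of Ces1c. In LKO control livers Ces3a (634.0 FPKM) ranked next to Ces1c, with libraries that overlapped those of Ces1d (517.3 FPKM), and Ces3b (177.0 FPKM) ranked just under Ces1f, clear of Ces2a below it (92.28 FPKM). In WT ethanol livers Ces2a ranked just under Ces1d by its mean (112.7 FPKM) and Ces3b last (8.94 FPKM), and apart from Ces1c all neighbours overlapped. Without library 2 of that group the mean of Ces2a was 77.1 FPKM, below that of Ces1f (98.4 FPKM) and close to that of Ces1g (77.0 FPKM). In LKO ethanol livers all neighbours below Ces1c (1274 FPKM) overlapped as well.

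Most of the family was lower on ethanol in WT livers. In the comparison of ethanol with control diet in WT, 7 of the 10 members fell at an adjusted p under 0.05 (limma on log2(FPKM + 1), Benjamini-Hochberg adjustment over the 11298 genes tested), and none rose. Of all genes tested, 4.18% were called in this comparison and 1.59% were called lower. The members' median log2 difference was -1.34, against -0.024 over all genes. The 7 were both Ces3 genes and 5 of the 6 Ces1 genes, and neither Ces2 gene was among them. Libraries of the 2 groups did not overlap for 6 of the 10 members, all lower on ethanol, against 4.45% of all genes.

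The largest falls were those of the Ces3 pair. Ces3a measured 394.4, 393.8, 405.3 and 472.5 FPKM in WT control libraries 1 to 4 and 149.9, 30.5, 34.16 and 9.26 FPKM in WT ethanol libraries 1 to 4. Every ethanol library was below every control library, and the ethanol libraries spread more than 10 times between lowest and highest. The log2 difference was -3.52 (SE 0.616, adjusted p = 0.00605). It was -4.21 without WT ethanol library 1, -2.92 without WT ethanol library 4 and -4.56 with array weights. Ces3b measured 72.8, 84.3, 38.45 and 124.3 FPKM on the control diet and 16.49, 11.19, 3.24 and 4.83 FPKM on ethanol. Its groups did not overlap either, and its mean fell from 79.96 ± 35.4 to 8.94 ± 6.10 FPKM (SD, n = 4). The log2 difference was -3.13 (SE 0.490, adjusted p = 0.00421), the smallest adjusted p of the 10 members. On both sides of the within-group split the falls were present, at -4.53 and -2.52 for Ces3a and at -3.82 and -2.44 for Ces3b.

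Among the Ces1 genes the lipid hydrolase Ces1d changed most. It measured 991.7, 658.6, 969.7 and 634.7 FPKM in WT control libraries and 302.0, 138.3, 204.4 and 69.9 FPKM in WT ethanol libraries. All ethanol libraries were lower, by a factor of 4.56 in the means (813.7 ± 193.3 to 178.6 ± 98.9 FPKM, SD, n = 4), and the log2 difference was -2.34 (SE 0.404, adjusted p = 0.00572). Ces1f, known as a second triacylglycerol hydrolase, measured 267.0, 245.8, 222.8 and 182.3 FPKM on the control diet and 166.1, 29.98, 85.24 and 43.73 FPKM on ethanol. Its groups did not overlap, and library 1 was by far the highest of the ethanol group. The log2 difference of Ces1f was -1.77 (SE 0.400, adjusted p = 0.0207), and without WT ethanol library 2, its lowest, it was -1.40 (adjusted p = 0.0187).

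Ces1g, the other lipid hydrolase of the group, measured 188.2, 184.8, 179.4 and 104.0 FPKM in WT control and 129.8, 44.8, 47.51 and 53.74 FPKM in WT ethanol libraries. The groups overlapped, because control library 4 was lower than ethanol library 1. The log2 difference was -1.35 (SE 0.349, adjusted p = 0.0384). Ces1c, the plasma esterase, measured 1512, 1814, 1922 and 1991 FPKM on the control diet and 1342, 957.1, 1003 and 595.0 FPKM on ethanol, without overlap. Its fall was the smallest of the 7, with a log2 difference of -0.94 (SE 0.258, adjusted p = 0.0490), and because it is the most abundant member it was the largest in FPKM, from 1810 ± 211.6 to 974.5 ± 305.8 (SD, n = 4). Ces1b measured 65.0 to 75.5 FPKM on the control diet and 14.2 to 42.1 FPKM on ethanol, without overlap, and its log2 difference was -1.33 (SE 0.336, adjusted p = 0.0344). In libraries 3 and 4 and in libraries 1 and 2 the differences were -1.87 and -0.79 for Ces1b and -1.34 and -0.55 for Ces1c. In the same order they were -2.70 and -1.98 for Ces1d, -1.71 and -1.84 for Ces1f, and -1.42 and -1.28 for Ces1g.

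Ces1e, the egasyn gene, did not pass the test in WT. It measured 95.97, 85.87, 77.91 and 48.24 FPKM on the control diet and 47.62, 65.99, 21.81 and 12.76 FPKM on ethanol, where library 2 was the highest, and the groups overlapped. The log2 difference was -1.25 (SE 0.399, adjusted p = 0.0875), and without library 2 it was -1.61 (adjusted p = 0.0108). A term for the 2 sides left the difference at -1.25 and put it under the threshold (adjusted p = 0.0431). The sides come from these same expression values, so that fit is not independent support. Equal FPKM sums (0.049) and array weights (0.00106) also put Ces1e under the threshold. The 6 other settings that kept all libraries of the 2 groups did not, with an adjusted p of up to 0.335. Over all these settings the difference ran from -2.12 to -1.2. Ces1e also passed without WT ethanol library 1. The 2 Ces2 genes did not pass the test with or without WT ethanol library 2. Ces2a measured 64.85, 89.05, 69.21 and 71.87 FPKM on the control diet and 148.1, 219.4, 49.37 and 33.83 FPKM on ethanol. Its ethanol libraries lay on both sides of the control range, libraries 1 and 2 above it and libraries 3 and 4 below it. The log2 difference of 0.23 (SE 0.443, adjusted p = 0.81, 95% interval -0.70 to 1.17) was made of 1.24 in libraries 1 and 2 and -0.77 in libraries 3 and 4, and became -0.21 without WT ethanol library 2. Ces2e measured 37.5 to 79.5 FPKM on the control diet and 44.2 to 92.9 FPKM on ethanol, with a log2 difference of -0.06 (95% interval -0.74 to 0.63), and without that library 0.04.

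**Figure D2:**
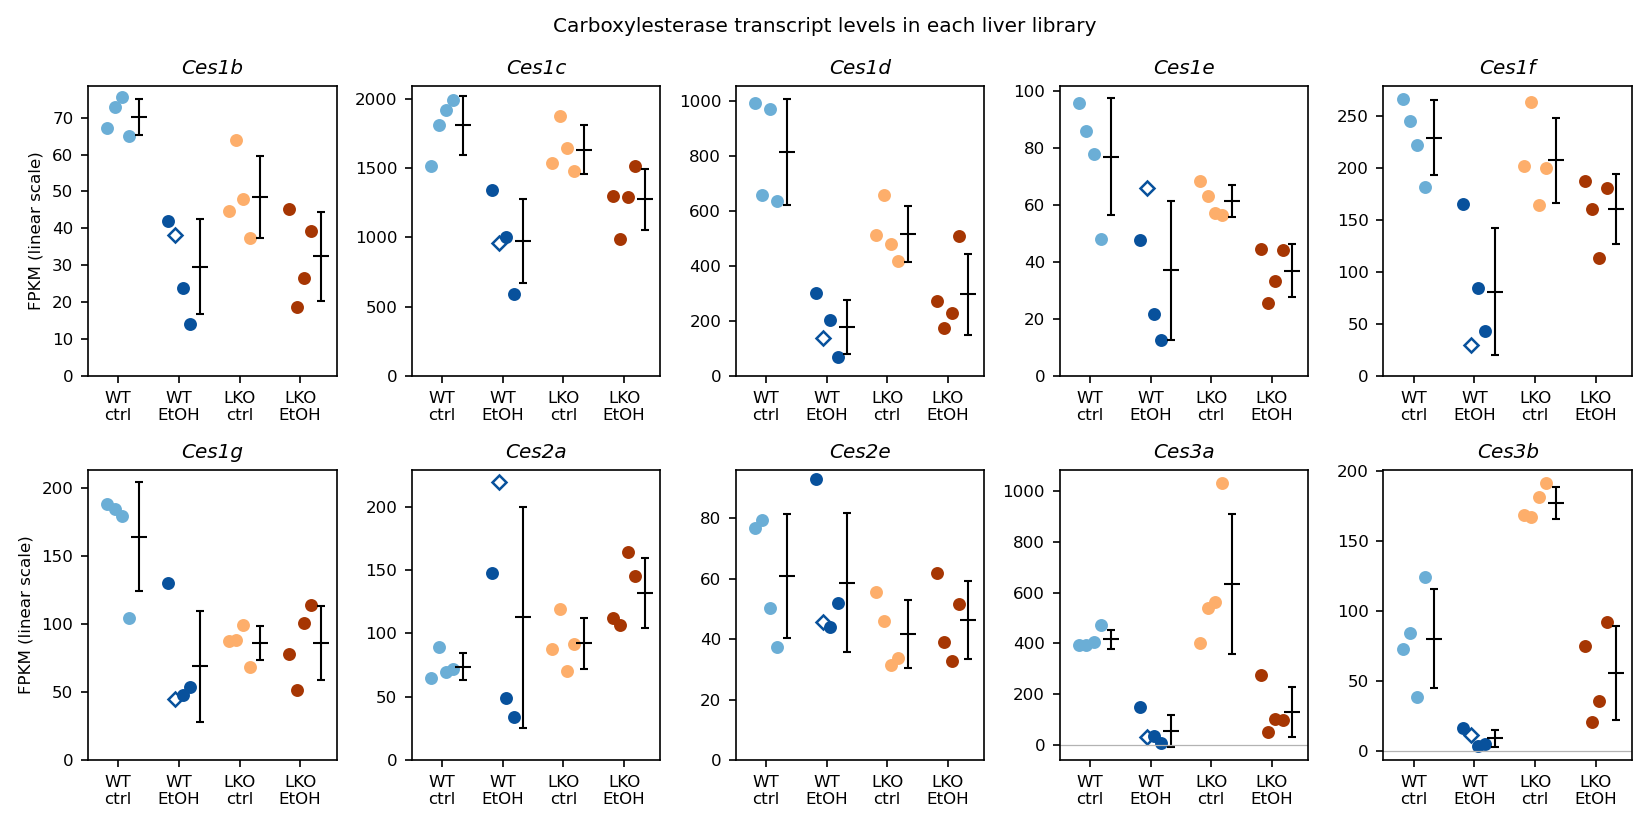
Each panel plots 1 carboxylesterase, with the FPKM of each library (linear scale) as a point in its genotype and diet group and the mean with SD (n = 4) as a bar beside the points; the open diamond is WT ethanol library 2. In Ces3a, Ces3b, Ces1d, Ces1f, Ces1c and Ces1b all WT ethanol points lie below all WT control points, and in Ces2a they lie above and below them.

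The 7 calls in WT were not equally firm. Ces3a, Ces3b and Ces1d stayed under the threshold in all 16 fits that left out 1 library, with the highest adjusted p at 0.0262, 0.0205 and 0.0277. Ces1f missed it in 3 of these fits (without WT control library 1, WT control library 2 or WT ethanol library 4), with an adjusted p of up to 0.0691. Ces1b missed it in 7 fits, Ces1g in 10 and Ces1c in 13, with an adjusted p of up to 0.0915, 0.115 and 0.136. The count of members called was 3 without WT control library 1, WT control library 2 or WT ethanol library 4, where 1.38%, 1.29% and 2.17% of all genes were called. It was 4 without WT control library 3, WT ethanol library 3 or LKO control library 1, beside 2.88%, 3.61% and 3.04% of all genes. The direction of the 7 genes was the same in all 16 fits. Without WT ethanol library 2, 8 of the 10 members were lower at the threshold, the 7 and Ces1e, while 9.48% of all genes were called and 2.25% were called lower. A fit to the 2 WT groups alone, with fewer libraries behind its estimate of the spread, called Ces3b alone (adjusted p = 0.0336), and 0.513% of all genes.

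In LKO livers none of the 10 members passed the test between ethanol and control diet, where 0.425% of all genes were called and 0.257% were called lower. This comparison has no library in common with the one in WT. The direction was downward for 8 members, the median log2 difference was -0.49 against 0.056 over all genes, and 3 members (Ces1d, Ces3a and Ces3b) were lower at an unadjusted p under 0.05, as were 3.57% of all genes. Ces3a measured 401.1, 539.5, 563.9 and 1032 FPKM in LKO control libraries 1 to 4 and 275.2, 50.32, 100.5 and 98.64 FPKM in LKO ethanol libraries. Ces3b measured 168.2, 167.1, 181.6 and 191.2 FPKM on the control diet and 74.72, 20.38, 35.41 and 91.77 FPKM on ethanol. Neither gene overlapped between the diets. The same held for Ces1e, at 56.6 to 68.4 FPKM on the control diet and 25.7 to 44.7 FPKM on ethanol, while 4.14% of all genes were lower without overlap.

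The log2 difference in LKO was -2.45 for Ces3a (SE 0.616, adjusted p = 0.102) and -1.88 for Ces3b (SE 0.490, adjusted p = 0.114). Without WT ethanol library 2, which enters this comparison only through the shared estimate of the spread, both values stayed the same and passed the threshold (adjusted p = 0.0403 and 0.0398), beside 3.62% of all genes called and 1.40% called lower. Both also passed in a fit to the 2 LKO groups alone (adjusted p = 0.0243 and 0.039), in which 2.20% of all genes were called. Of the 16 fits that left out 1 library, Ces3a did not pass in 14 and Ces3b in 15, with an adjusted p of up to 0.374 and 0.407, both without LKO ethanol library 2. Within the sides the LKO differences were -2.92 and -1.97 for Ces3a and -1.69 and -2.07 for Ces3b. Ces1d measured 512.7, 658.5, 480.2 and 417.8 FPKM on the control diet and 273.6, 173.8, 229.3 and 508.8 FPKM on ethanol. Its groups overlapped through LKO ethanol library 4, and the log2 difference was -0.90 (adjusted p = 0.502).

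The other Ces1 genes differed less between the diets in LKO. The log2 difference was -0.75 for Ces1e, -0.62 for Ces1b, -0.37 for Ces1f and -0.37 for Ces1c, with adjusted p values from 0.626 to 0.921. Ces1g measured 87.24, 88.25, 99.25 and 68.63 FPKM on the control diet and 78.1, 51.6, 100.7 and 113.6 FPKM on ethanol, and the ethanol libraries lay on both sides of the control libraries. Its log2 difference was -0.04 (SE 0.349, adjusted p = 1), with a 95% interval of -0.78 to 0.69. Ces2a measured 87.6, 119.3, 70.48 and 91.78 FPKM on the control diet and 111.8, 106.5, 164.4 and 145.7 FPKM on ethanol. It was the member with the largest upward difference, 0.51, which did not pass the test (adjusted p = 0.867).

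Comparing LKO with WT on the control diet asks whether loss of Zfp36l1 alone altered the family. No member passed the test, and 1 gene of all 11298 (0.00885%), Zfp36l1 itself, did. This comparison and the comparisons of diets use the same control libraries. Ces3b was higher in LKO, at 168.2, 167.1, 181.6 and 191.2 FPKM against 72.8, 84.3, 38.45 and 124.3 FPKM in WT, without overlap. The LKO libraries were close together (SD 11.5 FPKM) and the WT libraries were not (SD 35.4 FPKM). The log2 difference was 1.25 (SE 0.490, adjusted p = 1, unadjusted p = 0.0206 in limma), with 1.41 and 1.09 on the 2 sides. Among all genes 0.797% were higher at an unadjusted p under 0.05, and 1.61% were higher without overlap.

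Ces1g went the other way on the control diet, with 87.24, 88.25, 99.25 and 68.63 FPKM in LKO against 188.2, 184.8, 179.4 and 104.0 FPKM in WT. All LKO libraries were below all WT libraries, and the log2 difference was -0.90 (SE 0.349, adjusted p = 1, unadjusted p = 0.0195 in limma). Ces1b was also lower without overlap (37.4 to 63.8 against 65.0 to 75.5 FPKM), with a log2 difference of -0.55. Of all genes, 7.64% were lower in LKO without overlap and 2.66% at an unadjusted p under 0.05. Over the 10 members the median log2 difference was -0.22, beside -0.103 over all genes, with 7 members lower and 3 higher, and it was -0.37 without WT control library 4.

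On the ethanol diet no member passed the test between LKO and WT, where 0.0797% of all genes were called. Ces3b came closest. It measured 74.72, 20.38, 35.41 and 91.77 FPKM in LKO and 16.49, 11.19, 3.24 and 4.83 FPKM in WT, so that every LKO library was above every WT library. The ratio of the means was 6.22, and the log2 difference was 2.51 (SE 0.490, adjusted p = 0.0664). Of all genes, 0.894% were higher in LKO without overlap on this diet. Without WT ethanol library 2 the difference was 2.68 and passed (adjusted p = 0.0458), beside 0.221% of all genes called. It also passed without WT ethanol library 1 (2.85, adjusted p = 0.0115) and without LKO ethanol library 2 (2.90, adjusted p = 0.0156), and did not in the other 13 fits that left out 1 library, with an adjusted p of up to 0.283 (without LKO ethanol library 1). Over the settings that kept these libraries the adjusted p ran from 0.0116 to 0.565. The difference was 3.55 and 1.46 on the 2 sides.

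Other members were higher in LKO than in WT on ethanol with overlap between the groups. Ces1f measured 188.2, 161.3, 113.5 and 180.8 FPKM in LKO and 166.1, 29.98, 85.24 and 43.73 FPKM in WT, and only WT library 1 reached into the LKO range. Its log2 difference was 1.25 (SE 0.400, adjusted p = 0.264), similar on both sides (1.22 and 1.28). That of Ces3a was 1.60 (SE 0.616, adjusted p = 0.333), at 2.40 and 0.79 on the sides. Ces1f, Ces3a and Ces3b were the 3 members higher at an unadjusted p under 0.05, as were 3.04% of all genes. Without WT ethanol library 1 these 3 passed the threshold (adjusted p = 0.0173, 0.0290 and 0.0115), beside 3.43% of all genes. In the other 15 fits that left out 1 library Ces1f and Ces3a did not pass, with an adjusted p of up to 0.554 and 0.666. The lowest difference was 0.88 for Ces1f, without WT ethanol library 2, and 0.99 for Ces3a, without WT ethanol library 4, while that of Ces3a was 2.28 without WT ethanol library 1. With array weights both genes passed, Ces1f at 1.48 (adjusted p = 0.0333) and Ces3a at 2.88 (adjusted p = 0.0288), beside 4.41% of all genes. The difference of Ces2a was 0.59 (adjusted p = 0.629), and 1.03 (adjusted p = 0.203) without WT ethanol library 2. For Ces1b, Ces1e, Ces1g and Ces2a the difference was upward in libraries 3 and 4 and downward in libraries 1 and 2, for example 1.90 and -0.72 for Ces2a.

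The interaction asks whether ethanol acted differently in the 2 genotypes, and compares the response in LKO with that in WT. No member passed, and no gene of the 11298 tested did in limma (0%), while array weights called 0.0974% of genes and leaving out WT ethanol library 1 called 0.0531%, none of them a member. At an unadjusted p under 0.05 the count was 362 genes (3.20%). All 10 members had a positive interaction, meaning a less negative or more positive ethanol difference in LKO, from 0.20 for Ces2e to 1.44 for Ces1d, with a median of 0.90 beside 0.089 over all genes. All 10 were again positive without WT ethanol library 2, with a median of 0.94 beside -0.123 over all genes. The median was 0.44 without WT ethanol library 4, beside 0.224 over all genes, with 9 of 10 positive, and without LKO ethanol library 1 it was 0.60 beside 0.104. It was 1.26 without WT ethanol library 1 (0.066 over all genes), 1.17 without LKO ethanol library 2 (0.049) and 1.41 with array weights (-0.221), each with all 10 positive. The 2 sides differed: in libraries 3 and 4 all 10 values were positive (median 1.54), and in libraries 1 and 2 there were 6 positive and 4 negative (median 0.29), the negative ones being Ces2a (-1.14), Ces1e (-0.25), Ces1b (-0.06) and Ces1c (-0.04). The members vary together across libraries, so these 10 values are not 10 independent observations. At an unadjusted p under 0.05 were Ces1d (1.44, SE 0.572), Ces1f (1.40, SE 0.566) and Ces1g (1.30, SE 0.494), all with an adjusted p of 0.927, while 1.40% of all genes had such a positive interaction. The 95% intervals of these 3 ran from 0.23 to 2.65, from 0.20 to 2.59 and from 0.26 to 2.34. For Ces3a (1.08, interval -0.76 to 2.92) and Ces3b (1.25, interval -0.21 to 2.72) the intervals included 0. The fall of Ces3a in WT and its lower level on ethanol in LKO were therefore not shown to differ in size.

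**Figure D3:**
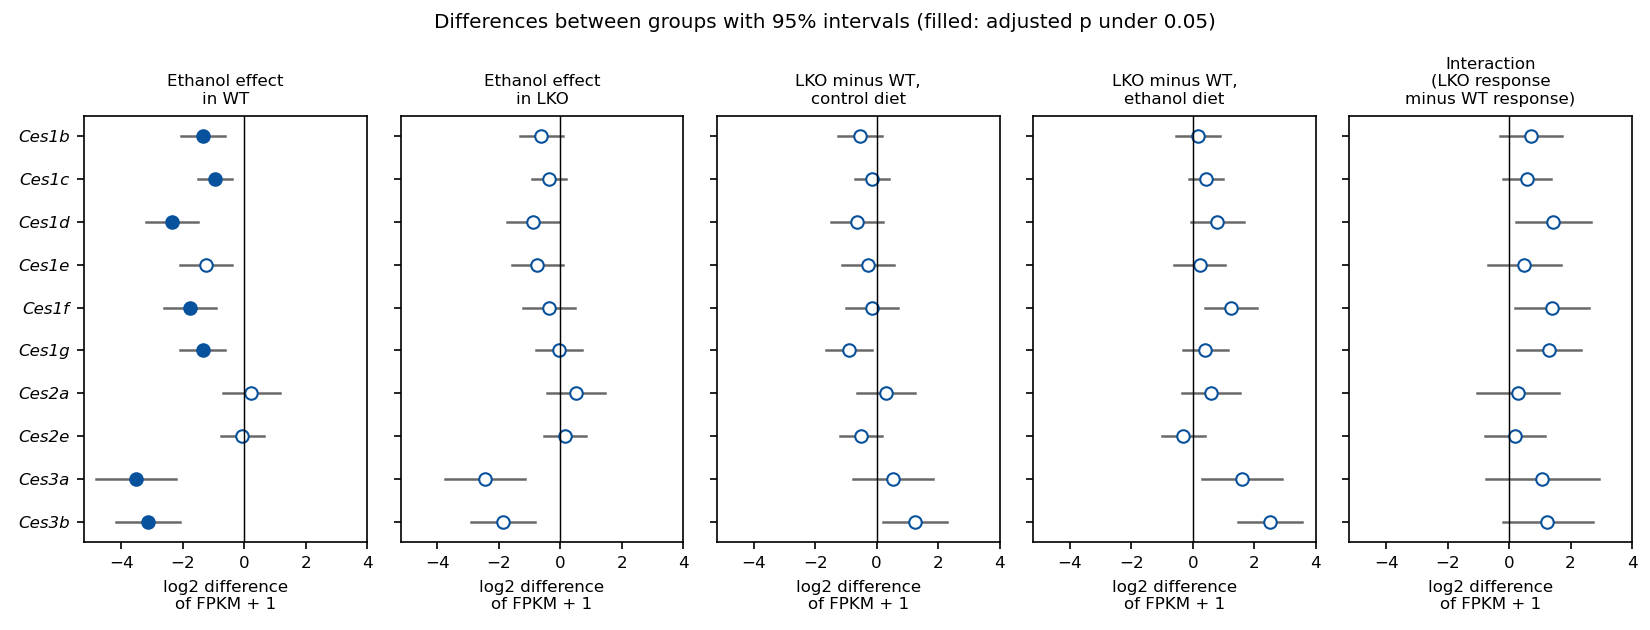
Points give the log2 difference of FPKM + 1 for each of the 10 carboxylesterases in 5 comparisons and lines their 95% intervals; filled points had an adjusted p under 0.05. The 7 filled points are all in the comparison of diets in WT, and all 10 interaction points lie to the right of 0.

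The make-up of the family shifted with the diet. Ces1c held 47.4% ± 5.28 of the family's FPKM in WT control and 61.2% ± 4.99 in WT ethanol livers, and 46.4% ± 3.86 and 56.3% ± 3.90 in LKO (SD, n = 4). In both genotypes all ethanol libraries had a higher Ces1c share than all control libraries of that genotype. The Ces3a share went from 10.9% ± 1.13 to 2.81% ± 2.25 in WT and from 17.9% ± 7.23 to 5.56% ± 3.73 in LKO. The Ces3b share went from 2.12% ± 0.971 to 0.528% ± 0.226 in WT and from 5.05% ± 0.521 to 2.28% ± 0.996 in LKO. Ces1d held 21.3% ± 4.73 in WT control and 10.5% ± 2.73 in WT ethanol livers, but 14.7% ± 2.37 and 12.5% ± 3.67 in LKO, where the diets overlapped. The Ces2a share went from 1.94% ± 0.310 to 6.69% ± 4.93 in WT, or to 4.30% ± 1.50 without library 2, and lay at 2.09 to 3.05% on the control diet and 4.49 to 7.63% on ethanol in LKO. These shares were not tested, and a share can rise because other members fall.

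Ces3a and Ces3b moved together without keeping a fixed ratio. Ces3a exceeded Ces3b in all 16 libraries, by a factor of 3.80 to 10.5 in WT control and 2.38 to 5.40 in LKO control libraries. On ethanol the factor was 1.92 to 10.6 in WT and 1.08 to 3.68 in LKO, where library 4 had 98.64 FPKM of Ces3a and 91.77 FPKM of Ces3b. The correlation of the pair on the log2 scale was 0.888 over the 16 libraries and 0.603 after the group means were removed. These libraries share their groups and their depth, and the pair shares sequence, so the values are a description.

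**Figure D4:**
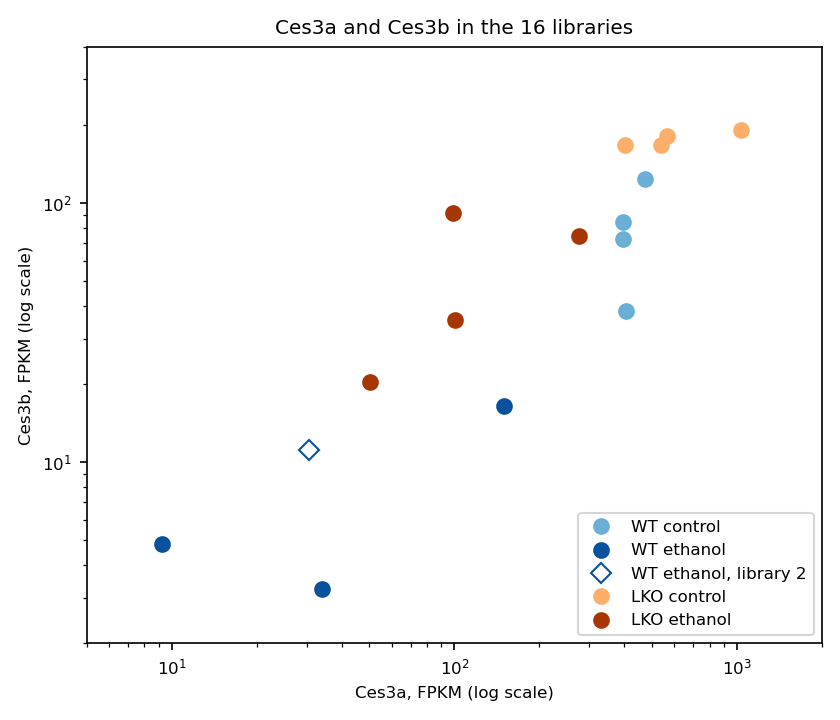
Each point is a library, with Ces3a on the horizontal and Ces3b on the vertical axis (FPKM, log scales), coloured by group; the open diamond is WT ethanol library 2. WT ethanol libraries lie at the lower left (3.24 to 16.49 FPKM of Ces3b) and LKO control libraries at the upper right (167.1 to 191.2 FPKM).

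Across the 16 libraries the Ces1 genes followed each other more closely than they followed the Ces2 genes. The highest correlations of log2(FPKM + 1) were those of Ces1c with Ces1d (0.935) and of Ces1b with Ces1e (0.905), and within groups they were 0.817 and 0.821. Ces2e correlated at -0.133 to 0.481 with the other members, and Ces2a at -0.015 to 0.343. Within groups and without WT ethanol library 2, Ces2a correlated at 0.733 with Ces1e and 0.793 with Ces1c.

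Outside the family, the genes with the pattern most like each member were sought by Pearson's r of log2(FPKM + 1) over 16 libraries. They were Acsm1 for Ces1b (0.902) and Ces1e (0.906), Inmt for Ces1c (0.92), Gcdh for Ces1d (0.927) and Ces1g (0.864), and Cyp2j5 for Ces1f (0.956). Over the 15 libraries without WT ethanol library 2, Gcdh (0.942) and Cyp2c69 (0.908) were closer to Ces1b than Acsm1 (0.903), and Akr1c6 (0.936) was closer to Ces1f than Cyp2j5 (0.926), among the 3 genes first found for each. Ces3a was most like Nat8f1 (0.957) and Ces3b most like Nxpe2 (0.92). Ces2a was most like Gnmt (0.874) and Ces2e most like Gatb (0.867). Nxpe2 and Nat8f1 were found by their likeness to Ces3b and Ces3a, so their differences are a description with no test. On the log2 scale, ethanol minus control was -2.35 in WT and -1.46 in LKO for Nxpe2, and LKO minus WT on ethanol was 1.90. For Nat8f1, ethanol minus control was -2.09 in WT and -1.87 in LKO.

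The 10 remaining carboxylesterase genes of the table were low in these livers. Only Ces2c and Ces2g passed the filter on low values, and neither differed at the threshold in any comparison. Ces2c, an intestinal and hepatic lipid hydrolase, measured 20.54, 14.63, 12.03 and 12.42 FPKM in LKO ethanol libraries, above the 6.85 to 9.37 FPKM of LKO control and the 0 to 11.97 FPKM of WT ethanol libraries. Its log2 difference was 0.74 between diets in LKO (adjusted p = 0.851) and 1.57 between genotypes on ethanol (adjusted p = 0.344). The WT ethanol library with no Ces2c read was library 2. Ces2g measured 12.3 to 18.2 FPKM on average in the 4 groups. Ces2f was at 0 in all 16 libraries, and Ces1a, Ces1h, Ces2b, the pseudogene Ces2d-ps, Ces2h, Ces4a and Ces5a stayed below 1 FPKM in every library.

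Genes around the carboxylesterases were read from lists. Of 9 other liver esterases, Aadac, an esterase of the endoplasmic reticulum that acts on drugs, fell with ethanol in WT (339.4 to 164.0 FPKM, log2 difference -1.13, adjusted p = 0.0476) and none was called in LKO. Of 12 neutral lipid hydrolases and cofactors, 10 were tested and none passed in any comparison with all libraries. When WT ethanol library 2 was left out, 2 of them rose with ethanol in WT: Pnpla2, adipose triglyceride lipase, by 1.49 and its coactivator Abhd5 by 0.93 on the log2 scale (adjusted p = 0.0297 and 0.0291, against 0.112 and 0.301 with it). None of 7 genes of very-low-density lipoprotein assembly passed with or without that library. Of 14 regulators, which include the nuclear receptors CAR (Nr1i3), PXR (Nr1i2), PPARalpha (Ppara) and FXR (Nr1h4), none passed with or without it either. Nr1i3 measured 66.6 and 30.3 FPKM on control and ethanol diet in WT (log2 difference -1.37, adjusted p = 0.167), and Ppara 44.4 and 21.8 FPKM (-1.21, adjusted p = 0.148). In LKO, Nr1i3 measured 45.86 and 43.88 FPKM (-0.2, adjusted p = 0.995) and Ppara 34.85 and 16.28 FPKM (-1.22, adjusted p = 0.366). The median log2 difference of the regulators was -0.59 in WT and -0.20 in LKO. Of 10 targets of CAR or PXR, Cyp2b10 and Gstm3 rose with ethanol in both genotypes at the threshold, and no target fell at it. Of all genes, 4.18% were called in WT and 0.425% in LKO. The list's median log2 difference was -0.14 in WT and 1.02 in LKO. In WT, Cyp2b13 (-1.57), Ugt1a1 (-1.27), Cyp2b9 (-0.86), Cyp3a11 (-0.7), Cyp2c29 (-0.16) and Cyp3a13 (-0.12) were below 0, none past the threshold. Cyp2c55 (0.74) and Abcc3 (0.45) were above 0. On leaving out WT ethanol library 2 the count that rose was 4 in WT, with Cyp2c55 and Abcc3, and 5 in LKO, with Cyp2c29, Cyp3a11 and Abcc3, and Cyp3a11 was lower in LKO than in WT on the control diet (log2 difference -1.90, adjusted p = 0.0364, against 1 with the library). The genes called only without that library are named after their values were seen. Cyp2b10, a cytochrome P450 induced through CAR, went from 2.07 to 489.8 FPKM in WT and from 4.27 to 575.9 FPKM in LKO, by 7.15 and 6.75 on the log2 scale (adjusted p = 5.25e-08 and 1.32e-07). In WT livers on ethanol the carboxylesterases named above as lower stood beside a higher Cyp2b10 in all 4 libraries. A link between them was not tested.

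Markers of other liver cells were read beside the WT result. Marco, 1 of 6 Kupffer cell markers, rose with ethanol in WT (8.19 to 30.1 FPKM, adjusted p = 0.0379). The log2 differences of Vsig4, Timd4, Adgre1 and Cd5l were -0.44 to -0.10 and that of Clec4f was 0.27, none past the threshold, and the list summed to 88.1 to 270.1 FPKM on the control and 93.2 to 288.9 FPKM on the ethanol diet. Des, 1 of 6 stellate cell markers, rose as well (1.17 to 3.32 FPKM, adjusted p = 0.0296), with list sums of 86.7 to 170.8 and 105.9 to 237.6 FPKM. The log2 differences of Dcn and Reln were -0.34 and -0.09. Those of Lrat, Ecm1 and Col1a1 were 0.07, 0.41 and 1.33, and none of these other markers passed the threshold. All markers of both lists were above 0 in every library. None of 6 sinusoidal endothelial markers passed with all libraries, and 1, Lyve1, rose with ethanol without WT ethanol library 2, by 2.58 in WT and 1.75 in LKO on the log2 scale (adjusted p = 0.00244 and 0.0177, against 0.12 and 0.304 with it). With all libraries, 4 of the 6 (Clec4g, Kdr, Stab2 and Oit3) had log2 differences below 0 in WT, from -1.46 to -0.51, and the list's median was -0.52. That list summed to 41.2 to 80.6 FPKM in WT control libraries and to 54.0 to 84.1 FPKM in WT ethanol libraries other than library 2, which had 12.1 FPKM. Of the other marker lists, 2 of 5 cholangiocyte, 3 of 5 neutrophil, 1 of 4 pancreas, 1 of 4 intestine and 3 of 3 red blood cell markers were abundant enough to be tested, and none of these passed with or without library 2. The hepatocyte list summed to 59680 to 73620 FPKM in WT control and 42820 to 72980 FPKM in WT ethanol libraries, with overlap. The part of these cells in the falls of the carboxylesterases was not tested.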

How the data were processed

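Liver RNA of 16 mouse libraries was measured, 4 per group, and libraries were grouped by their treatment label and numbered in record order, a number not used to pair libraries. The authors deposited FPKM values, 1 per gene ID and library. Per the submitters' processing notes, the tools were fastp, STAR 2.6.1, HTSeq and DESeq2 with genome build mm10 (the assembly of GRCm38), and the role of each is not given in the sources used here. Gene symbols and positions came from GENCODE M21, which gave a symbol for 34490 of 35275 IDs. The deposited FPKM values are whole multiples of what 1 read is worth. Dividing by that step gave reads for 24377 genes. Taking the 20520 that 4 or more libraries detected, 100% of values lay within 0.1 of a whole read. They gave totals of 9884479 to 24768501 reads per library, and the recovered reads were used for the family's share of reads and the voom alternative.

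Genes with an FPKM of at least 1 in at least 4 libraries were tested (11298 genes). The deposited FPKM values were converted to log2(FPKM + 1), a scale that understates changes of low genes, and a group-means model was fitted over all 16 libraries with limma 3.58.1 (lmFit, eBayes with trend) in R 4.3.3. P-values are two-sided and Benjamini-Hochberg adjusted over all genes tested, with calls at an adjusted p under 0.05. The procedure was tested on simulated reads, with an outcome not given here. These reads were drawn independently for each library, without the 2 sides or a library with the profile of WT ethanol library 2. The simulation therefore does not bear on those features. Differences within sides of the split were added after the data were seen. The alternatives were another pseudocount (0.1), no filter, 3 other scalings, array weights, voom on the recovered reads, 2-group fits, a term for the side, and fits without each library.

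All 10 members are named. Of each gene list, those called were named, up to 3 by adjusted p, and of other carboxylesterases and regulators any gene. The genes most like each member were ranked by r, passing over predicted genes and pseudogenes, and the first of each is given, with those that pass it when WT ethanol library 2 is left out. Zfp36l1 and Cyp2b10 are references. The members, lists and rules were chosen with earlier results of these data known. Sequences are from RefSeq (promoters) and GENCODE M21 (coding and 3′ UTR), aligned with Biopython 1.88 in Python 3.11.15. A planned comparison of proteins was replaced by one of coding sequences, since no protein table was used here.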

Additional observations from a re-analysis of the deposited data

Results flagged for a closer look

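In each of the 40 member and group combinations, the highest and lowest of the 4 libraries were compared with the rest, and 4 lay further off than Dixon's 95% limit for the gap as a share of the group's range. Chance flags about 1 in 20 such groups. Ces1g was low in WT control library 4, at 104.0 FPKM against 179.4 to 188.2 FPKM in the others (gap 0.895 of the range), and high in WT ethanol library 1, at 129.8 FPKM against 44.8 to 53.74 FPKM (gap 0.895). These 2 libraries make the WT groups of Ces1g overlap. Ces2e was high in WT ethanol library 1 too, at 92.88 FPKM against 44.17 to 51.92 FPKM (gap 0.841). Ces3a was high in WT control library 4, at 472.5 FPKM against 393.8 to 405.3 FPKM (gap 0.853). WT ethanol library 2 was not flagged for any member.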

How the results depend on the processing

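The count of members called in WT (7 lower) was 7 with the other pseudocount (3.41% of all genes called), quantile scaling (8.25%) and equal FPKM sums (2.24%), and 6 with voom (3.01%). The count was 8 with array weights (15.3%), the side term (6.87%) and the side term without WT ethanol library 2 (19.7%). It was 3 without the filter on low values (1.16% of all genes called, against 4.18%), 4 with median-of-ratios scaling (6.77%), 1 in the 2-group fit (0.513%), and 3 to 8 on leaving out 1 library. In LKO (0 called, 0.425% of all genes) it was 2 (Ces3a, Ces3b) with array weights (9.89%), in the 2-group fit (2.20%) and with the side term without WT ethanol library 2 (10.7%), and 0 to 2 on leaving out 1 library. For LKO against WT on the control diet it was 2 with array weights (Ces3b higher, Ces1g lower), where the share of all genes called went from 0.00885% to 3.88%, and 0 on leaving out any library. On the ethanol diet (0.0797% of all genes) it was 1 (Ces3b) with equal FPKM sums (0.0885%) and with the side term without WT ethanol library 2 (1.58%). It was 5 with array weights (Ces1d, Ces1f, Ces2a, Ces3a and Ces3b, all higher in LKO, beside 4.41%), and 0 to 3 on leaving out 1 library. The interaction count was 0 in every fit. With array weights, where the weight of WT ethanol library 2 was 0.0502, 15.3% of all genes were called in WT, and the median log2 difference of all genes moved from -0.024 to 0.258. The cause was not tested.

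Differences near 0 changed sign. For Ces2a in WT, 0.23 became -0.65 with array weights and -0.16 with the side term without WT ethanol library 2, and ran from -0.21 to 0.67 over the fits without 1 library, lowest without WT ethanol library 2. For Ces2e in WT, -0.06 became 0.14 with the side term without WT ethanol library 2, and leaving out 1 library gave -0.30 to 0.09. In LKO, Ces1g (-0.04) became 0.00 with quantile scaling and 0.04 with array weights, and leaving out 1 library gave -0.20 to 0.18 for Ces1g and -0.01 to 0.29 for Ces2e. Between genotypes on ethanol, leaving out 1 library gave -0.13 to 0.39 for Ces1b and -0.18 to 0.58 for Ces1e, both lowest without WT ethanol library 4. The interaction of Ces2a was -0.16 without that library and up to 0.73 without another. No paired analysis was run because the labels document no pairing. Library numbers here follow record order. The numbers in the 16 sample titles all differ, and in 5 of the 8 pairs of control and ethanol libraries at the same record position they are consecutive, but nothing says what they mark. With 4 libraries per group, the standard errors of the members were 0.258 to 0.616 on the log2 scale in comparisons of 2 groups and 0.366 to 0.872 in the interaction.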
